A study of Arabidopsis thaliana with 5 samples.

Results

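The comparison covered 2 of the 5 libraries of the study, dsRNA-seq after 1 round of rRNA depletion and smRNA-seq. Both were made from unopened flower buds of wild-type Arabidopsis thaliana of the Col-0 ecotype. For dsRNA-seq, total RNA pooled from several biological replicates was depleted of rRNA with Ribominus and digested with RNase One, a ribonuclease that cuts single-stranded RNA. For smRNA-seq the sources differ: the extraction text of that sample is the one of the dsRNA samples, with both steps, while its characteristics list neither step and the methods of the study describe library construction with a small RNA kit alone. Whether the smRNA library was depleted or digested is thus not settled here, and each ratio below compares the libraries as they were made. The remaining 3 libraries are a Col-0 dsRNA library with 2 rounds of depletion and the dsRNA and smRNA libraries of the rdr6 mutant. Reads with 1 location in the genome were kept, counted per annotated gene and per bin of 1000 bases, and scaled by the single-location reads of their library. Every gene and bin of the 2 libraries entered, and which of them are named was decided partly by their values. Each assay has 1 library, so no difference has a replicate check and no test was made. Intervals below are 95% Clopper–Pearson intervals for ratios and 95% Wilson intervals for shares, and together with the limit of 3 counts used in place of 0 they cover counting error only.

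Base-paired RNA in a plant cell has several sources. A transcript can fold back on itself, as tRNAs, snoRNAs, snRNAs and many mRNAs do, transcripts of opposite strands can pair, and RNA-dependent RNA polymerases such as RDR2 and RDR6 can copy a transcript into a long duplex. DICER-LIKE enzymes cut fold-backs into miRNAs and long duplexes into siRNAs, and siRNA duplexes are themselves base paired. A locus can therefore be seen in dsRNA-seq alone, in smRNA-seq alone or in both.

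The reads of both libraries can be followed down to single sequences at the loci of known small RNAs. The mature miRNAs below, taken from RefSeq (TAIR10.1), carried many reads, share a seed or had ratios towards either end, with the seed (bases 2 to 8) in capitals.
miR158a-3p (chr3:3366349-3366368, minus strand): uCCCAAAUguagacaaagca
miR158b (chr1:20772273-20772292, plus strand): cCCCAAAUguagacaaagca
miR156h (chr5:22597087-22597106, minus strand): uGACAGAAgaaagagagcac
miR156d-5p (chr5:3456713-3456732, minus strand): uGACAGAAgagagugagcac
miR161.1 (chr1:17825731-17825751, plus strand): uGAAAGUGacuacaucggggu
miR173-5p (chr3:8236161-8236182, plus strand): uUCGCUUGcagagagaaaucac
miR391-5p (chr5:24293160-24293180, plus strand): uUCGCAGGagagauagcgcca
miR4243 (chr5:19567227-19567247, plus strand): uUGAAAUUguagauuucguac

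The first 2 share the seed CCCAAAU, and the 2 miR156 members share GACAGAA. The next sequences are the most frequent reads of loci that the comparison turns on, read from the TAIR10.1 reference at the positions of the reads, with no part in capitals. At these 3 TAS genes and GH9B11 the same read was the most frequent in both libraries. At U3B and the snoRNA gene AT3G47347 the read is that of the dsRNA library, and its first 30 of 38 bases are shown.
TAS1A (chr2:11721923-11721943, minus strand): atgatatttgtagtaatggcg
TAS1C (chr2:16537712-16537732, plus strand): ttctttagacgacttgaaaat
TAS3 (chr3:5862310-5862330, minus strand): tgactcgaacgaattagaggt
GH9B11 (chr2:18393426-18393449, plus strand): agattacatgagcatcagaaccgt
U3B (chr5:21888458-21888487, plus strand): actcggctcggtttctaccttgccggggtg
AT3G47347 (chr3:17445809-17445838, plus strand): agccagtgatgattagattcaatggttgct

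The libraries held 10294611 (dsRNA) and 10674768 (smRNA) mapped reads. Of these, 2317892 (22.5%) and 6173862 (57.8%) had a single location. The chloroplast contributed 37.6% of the single-location dsRNA reads and 1.01% of the single-location smRNA reads.

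Of 38028 genes and pseudogenes of the nuclear and chloroplast annotation, 30869 had a read in either library, and 5917 had at least 50 reads in both libraries together. A gene can reach this minimum through 1 library alone, and 1103 genes had at least 50 reads in each. A locus was called rich in an assay when its scaled reads were at least 4-fold higher there. By this rule 2216 genes were rich in dsRNA (37.5% of the genes with 50 reads), 1373 were rich in smRNA (23.2%) and 2328 lay between. The median log2 ratio of dsRNA to smRNA was 6.04 in the first group, -2.47 in the second and -1.37 among the rest. For 180 of the genes rich in dsRNA no smRNA read was found, and their ratios are lower limits. Genes rich in dsRNA mostly lay far from the limit, with 15 genes between log2 ratios of 1.9 and 2.1, and many genes rich in smRNA lay close to it, with 354 genes between -2.1 and -1.9. On the dsRNA side KTF1 lay just inside the limit at 2.02 and HGL1 just outside at 1.96. On the smRNA side RLM3 lay just inside and AT3G27680 just outside, both at -2.0 when rounded. These genes were chosen after their values were seen.

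**Figure D1:**
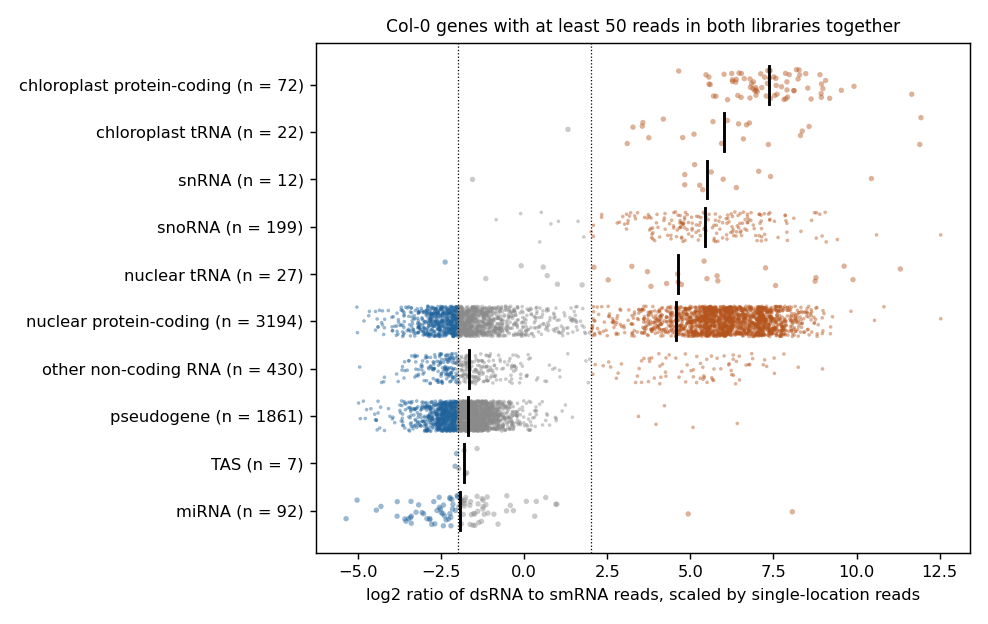
Log2 ratio of scaled dsRNA to smRNA reads (horizontal axis) for each gene with at least 50 reads, in rows by gene class, with dotted lines at 4-fold, black bars at medians, and colours for genes rich in dsRNA (brown), rich in smRNA (blue) or neither (grey). Chloroplast genes, snoRNA, snRNA and tRNA genes lie mostly to the right, pseudogenes, TAS and miRNA genes mostly to the left, and nuclear protein-coding genes fall on both sides, and the single rRNA gene with 50 reads is not drawn.

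The scaling shifts every ratio by a constant. Scaling by all mapped reads moved each log2 ratio by -1.36, scaling by nuclear single-location reads by 0.80, and scaling by the median ratio by 1.12 for genes and 1.92 for bins. Genes rich in dsRNA made up 61.7% of the called genes, against 39.2%, 85.5% and 91.4% in the same order of alternatives. For bins the share was 15.4%, against 8.54%, 37.0% and 83.1%. Of the 2216 genes rich in dsRNA 95.9%, 100% and 100% were called again, and of the 1373 genes rich in smRNA 100%, 27.8% and 15.7%. The number of genes called rich in smRNA thus rests on the scaling.

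The classes of RNA differed in direction. In the class sums each read was counted once, in a single class even where genes overlap. Reads in snoRNA genes, which guide the chemical modification of rRNA, were 32.2-fold higher in dsRNA (interval 31.7 to 32.7), with 199395 dsRNA and 16500 smRNA reads. Reads in tRNA genes were 35.4-fold higher (35.1 to 35.7), a sum made up mostly of chloroplast reads. Chloroplast tRNA genes held 683270 dsRNA reads and were 36.8-fold higher (36.4 to 37.1). Nuclear tRNA genes held 7143 dsRNA reads and were 7.94-fold higher (7.58 to 8.32). Reads in snRNA genes, the RNAs of the spliceosome, were 23.0-fold higher (20.9 to 25.5), and mitochondrial reads 21.6-fold (21.2 to 21.9). Of the 66 mitochondrial bins of 1000 bases with 50 reads, 27 were at least 4-fold higher in dsRNA and 39 lay within 4-fold. In the other direction, nuclear reads outside every annotated gene were 3.47-fold higher in smRNA (3.46 to 3.48), pseudogene reads 2.96-fold (2.94 to 2.99) and miRNA gene reads 2.67-fold (2.63 to 2.72). Nuclear protein-coding genes split by strand. Reads on the strand of the mRNA were 2.29-fold higher in dsRNA (2.28 to 2.30), a direction that turned to a log2 ratio of -0.16 with scaling by all mapped reads. Reads on the opposite strand were 2.73-fold higher in smRNA (2.71 to 2.76). Reads in other non-coding RNA genes had no stable direction: their log2 ratio was -0.67, became 0.14 with nuclear scaling, and was 0.06 when reads shared with an overlapping gene were counted for both (-1.30 with all mapped reads).

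Genes of structured non-coding RNAs were nearly all on the dsRNA side. Among 287 snoRNA genes, 199 had 50 reads, and 191 of these were rich in dsRNA, none rich in smRNA, with a median log2 ratio of 5.43. AT2G08765 had 14174 dsRNA and 55 smRNA reads, a ratio of 686 (527 to 912). AT3G47347 had 14007 and 264 reads, a ratio of 141 (125 to 160), and the read printed above made up 82.5% of its dsRNA reads with only 10 copies in smRNA. U3B, a snoRNA of the U3 family that takes part in rRNA processing, had 2224 dsRNA reads and 1 smRNA read, a ratio of 5924 with a wide interval (1062 to 234080). All dsRNA reads of these 3 genes lay on the annotated strand. The 8 snoRNA genes within 4-fold had log2 ratios of -0.84 (AT1G05417) to 1.80 (AT3G24615), and AT2G05765 held the most reads of them, 2123 dsRNA and 4089 smRNA (log2 ratio 0.47, which the shift for all mapped reads makes negative). Of 12 snRNA genes with 50 reads, 11 were rich in dsRNA. U12, part of the minor spliceosome, had 1478 and 95 reads, and U1.2 had 524 and 1. The exception was U1.3 (21 dsRNA and 164 smRNA reads, log2 ratio -1.55), whose smRNA reads were 73.2% of 24 nt and lay on the annotated strand in 8.54% of cases.

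Nuclear tRNA genes are highly repeated, and only 27 of 625 had 50 single-location reads, of which 20 were rich in dsRNA. AT4G02055 led with 1830 dsRNA and 1136 smRNA reads, a ratio of 4.29 (3.98 to 4.62), so that its call is not separated from the 4-fold limit by counting error. AT1G17570 had 958 and 1 reads. AT5G35605, a tRNA-Arg gene with 11 dsRNA and 152 smRNA reads, was the 1 tRNA gene rich in smRNA, and 83.6% of its smRNA reads were 24 nt long.

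Chloroplast mRNAs had the highest median ratio of the gene lists compared. All 72 of the 85 chloroplast protein-coding genes that had 50 reads were rich in dsRNA, with log2 ratios of 4.65 to 11.66 and a median of 7.36. The median was 8.24 for the 15 photosystem II genes, 7.93 for the 5 photosystem I genes, 7.37 for the 6 ATP synthase genes and 6.18 for the 10 NADH dehydrogenase genes with 50 reads. psbA, which encodes the D1 protein of photosystem II, had 17455 dsRNA and 95 smRNA reads, a ratio of 489 (400 to 605). rbcL, the large subunit of Rubisco, had 15446 and 111 reads, a ratio of 371 (308 to 451). Chloroplast tRNA genes held 683270 dsRNA and 49511 smRNA reads, and 21 of the 22 with 50 reads were rich in dsRNA. trnL (ArthCt101) was high in both libraries, with 91553 and 25197 reads, and 94% of its smRNA reads were a single read of 35 bases that starts at the first base of the tRNA. trnD was the 1 chloroplast gene within 4-fold, with 3642 and 3886 reads (log2 ratio 1.32). Genes of the inverted repeat, rRNAs among them, have 2 copies and hold few single-location reads: the 7 chloroplast rRNA genes had 24 dsRNA reads and 1 smRNA read in all.

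In the chloroplast the dsRNA reads were not always on the annotated strand. Of 93 chloroplast genes rich in dsRNA, 12 had under 50% of their dsRNA reads on their own strand. psbM, a small subunit of photosystem II, had 3648 dsRNA reads and 3 smRNA reads, with 1.04% of the dsRNA reads on its own strand, and psbK had 1143 and 6 reads with 3.32%. The tRNA-Thr gene ArthCt100 had 20610 and 14 reads with 2.66%. For the tRNA-Ser gene ArthCt091 (110525 and 926 reads, 5.70% on the annotated strand) the annotation itself is in doubt. The letters GTTCAA or GTTCGA, which belong to the T loop of tRNAs, were found in the last 35 bases of the annotated strand in 35 of 37 chloroplast tRNA genes, on the opposite strand only in ArthCt091, and on neither strand in 1. With ArthCt091 turned, 90.2% in place of 75.8% of the dsRNA reads of chloroplast tRNA genes were on the strand of the tRNA.

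Of 3194 nuclear protein-coding genes with 50 reads, 1814 were rich in dsRNA and 536 rich in smRNA. In the first group a median of 99% of the sense dsRNA reads of a gene lay in exons, which cover a median of 72.2% of these genes. The anther genes ATA20 and ATA27 had the largest ratios among nuclear protein-coding genes with at least 500 reads and most of them on the gene's own strand, with 680 and 559 dsRNA reads and 1 smRNA read each. HSC70-1, a heat shock cognate chaperone, had 905 and 11 reads, a ratio of 219 (122 to 441). GUN5, a subunit of the Mg-chelatase of chlorophyll synthesis, had 695 and 13 reads, a ratio of 142 (82.7 to 269).

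Among members with 50 reads, lists of genes with abundant mRNAs were mostly on the dsRNA side. Beside these and later lists stands the share among all 3194 nuclear protein-coding genes with 50 reads, of which 1814 were rich in dsRNA. A gene can reach this minimum through its dsRNA reads alone. It was missed by 36 of 72 photosynthesis, 227 of 353 ribosomal protein and 37 of 47 core histone genes. Of 36 nuclear photosynthesis genes with 50 reads, 32 were rich in dsRNA and none rich in smRNA, with a median log2 ratio of 6.17. LHCA4, a light-harvesting protein of photosystem I, had 637 dsRNA and 10 smRNA reads. Of 126 ribosomal protein genes with 50 reads, 123 were rich in dsRNA and 2 rich in smRNA (median 6.92), and of 10 core histone genes 9 and 1 (median 6.10). The exceptions rich in smRNA, named after their values were seen, were AT2G27535 (12 and 256 reads) and AT3G10950 (12 and 225) among the ribosomal protein genes and HTA4 (4 and 64) among the histone genes, with 61.8% to 76.6% of their smRNA reads at 24 nt. Of the 4 genes for the elongation factor eEF1A, AT5G60390 alone had 50 single-location reads, 136 dsRNA and 3 smRNA. A read found in more than 1 of these genes has several locations and was left out, so a low count here need not mean little dsRNA. The 7SL RNA locus AT7SL-1, where the RNA of the signal recognition particle is made, had 1604 and 108 reads, and 0.56% of its dsRNA reads lay on the strand annotated for a coding transcript.

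Some of these genes carried another RNA. In 35 nuclear protein-coding genes rich in dsRNA, fewer than 50% of the sense reads lay in exons, and in 20 of them a snoRNA gene overlapping on the same strand had at least 50% as many dsRNA reads as the gene. The 4 ribosomal protein genes with the most reads were of this kind. In AT4G17390, with 3960 dsRNA and 60 smRNA reads, 1.92% of the sense reads lay in exons. With reads in more than 1 gene left out, its log2 ratio fell from 7.46 to 5.64, that of AT1G04480 from 7.78 to 5.87, that of AT1G27400 from 7.05 to 3.65 and that of AT1G67430 from 4.63 to 3.96, and all remained above the 4-fold limit.

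**Figure D2:**
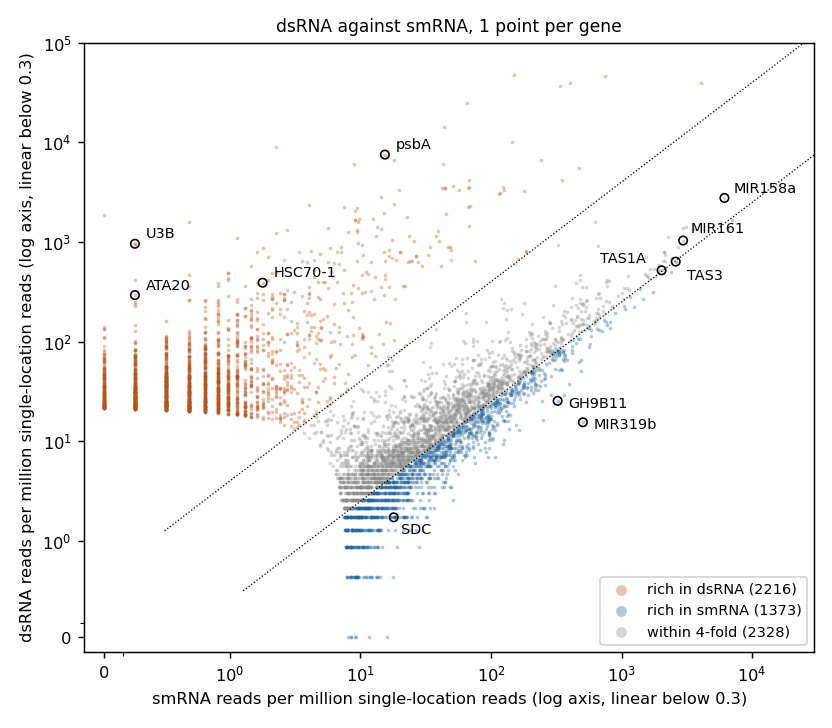
Scaled reads of each gene with at least 50 reads in the smRNA library (horizontal axis) and the dsRNA library (vertical axis), as RPM, reads scaled to the single-location total of each library, on log axes that are linear below 0.3, with dotted lines at 4-fold and circles around 11 named genes. Genes rich in dsRNA such as U3B, ATA20 and psbA form a separate cloud with few smRNA reads, and MIR158a, MIR161, TAS1A and TAS3 lie at high levels in both libraries, higher in smRNA.

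The genes rich in smRNA were of other kinds. They comprised 636 pseudogenes, 536 protein-coding genes, 155 other non-coding RNA genes, 45 miRNA genes and 1 tRNA gene, all nuclear. The gene classes used here hold none for transposable elements, which the study classed apart. How many of the pseudogenes are genes of such elements was not examined. In 1321 of the 1373 genes at least 50% of the smRNA reads were 24 nt long, the length made by DCL3 in the pathway that directs DNA methylation, and in 32 at least 50% were 21 nt long. The length of 24 nt did not set this group apart. Its median share was 74% in these genes and 72.4% in genes within 4-fold, and 71.4% of all single-location smRNA reads had it. Among those with at least 500 reads MIR319b had the largest ratio, with 36 dsRNA and 3120 smRNA reads, 32.5-fold higher in smRNA (23.5 to 46.5). GH9B11, which encodes a glycosyl hydrolase, had 59 and 1999 reads, 12.7-fold higher (9.82 to 16.8). In GH9B11 the 24-nt read printed above, antisense to the gene, made up 80.1% of the smRNA reads and 59.3% of the dsRNA reads. AT1G56630, an alpha/beta-hydrolase gene, had 38 and 1548 reads, 15.3-fold higher (11.1 to 21.7), and 1.81% of its smRNA reads were on its own strand. The pseudogene CYP51G2 had 18 and 570 reads, 11.9-fold higher (7.45 to 20.2). SDC and FWA, genes known to be silenced by DNA methylation at repeats near their promoters, had 4 and 111 reads and 5 and 83 reads, 10.4-fold (3.96 to 38.9) and 6.23-fold (2.57 to 19.7) higher in smRNA. QQS, whose expression is also known to vary with DNA methylation, had 6 and 37 reads and was not called.

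Of 1861 pseudogenes with 50 reads, 5 were rich in dsRNA. They were AT1G57900, AT1G79245, AT1G80020, AT2G11240 and PMI15, named after their values were seen, with 47 to 127 dsRNA and 2 to 13 smRNA reads. The median log2 ratio of the 1861 was -1.70, with quartiles of -2.19 and -1.23.

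Loci high in both libraries held mostly short reads, chloroplast trnL apart. After scaling, the genes with the most reads in their scarcer library were trnL, the miRNA genes MIR158a and MIR161, the pseudogene AT3G43832, 2 non-coding RNA genes and 4 protein-coding genes. AT4G08545, annotated as an LRR receptor-like protein, had 3837 dsRNA and 43285 smRNA reads (log2 ratio -2.08). The remaining 6, without trnL, AT4G08545 and the miRNA genes, had log2 ratios of -1.61 to -1.02, and the ratios of AT3G03395, AT3G08370 and AT2G06555 turned positive (0.01 to 0.10) with scaling by the median ratio. In these 6 and AT4G08545, 64.1% to 92.7% of the dsRNA reads were 20 to 25 nt long.

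miRNA genes were lower in dsRNA than in smRNA. Of 326 miRNA genes, 92 had 50 reads, 45 were rich in smRNA, 45 lay within 4-fold and 2 were rich in dsRNA, with a median log2 ratio of -1.94. MIR158a had 6415 dsRNA and 37849 smRNA reads, 2.22-fold higher in smRNA (2.16 to 2.27). MIR161 had 2398 and 18271 reads, 2.86-fold higher (2.74 to 2.99), MIR780 had 1046 and 9591, 3.44-fold (3.23 to 3.67), and MIR156h had 446 and 5460, 4.60-fold (4.17 to 5.07). The 2 rich in dsRNA were MIR4228 (299 and 26 reads) and MIR8176 (403 and 4 reads), named after their values were seen, with 9.36% and 5.21% of their dsRNA reads at 20 to 25 nt.

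At miRNA genes both libraries mainly held the mature miRNA. Of 15042 dsRNA reads at 327 genes with an annotated mature sequence (the 326 miRNA genes and the pseudogene AT4G04409), 83.8% (83.2 to 84.4) were at most 25 nt long and started within 2 bases of a mature 5′ end, and of 104272 smRNA reads 87.0% (86.8 to 87.2). Among the 58 mature sequences with at least 50 smRNA reads, 32 were at least 4-fold lower in dsRNA and none was 4-fold higher, with a median log2 ratio of -2.18. miR158a-3p had 6401 dsRNA and 37780 smRNA reads, and the shared-seed miR158b 27 and 288. miR156h had 446 and 5460 reads and miR156d-5p 66 and 915, so in these counts the members of either seed group fell on the same side. None of the miR156d-5p reads had both annotated ends, which leaves variants of its start or length, while 405 and 4976 of the miR156h reads had them. A read that also occurs at another locus was left out, so these counts need not give the level or side of mature miR156d-5p. miR173-5p, which starts siRNA production at TAS1 and TAS2, had 393 and 3235 reads, 3.09-fold higher in smRNA (2.78 to 3.44). miR4243 lay among the lowest, with 6 and 288 reads. miR391-5p had 466 and 719 reads, the highest log2 ratio of the 58 at 0.79, which became -0.57 with scaling by all mapped reads. For miR161.1 the most frequent read in both libraries began 1 base before the annotated start.

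TAS transcripts are cut after binding a miRNA, copied by RDR6 and diced by DCL4 into siRNAs of 21 nt. All 7 of the 8 TAS genes that had reads were higher in smRNA, with log2 ratios in a narrow range of -2.08 to -1.41. TAS3 had 1472 dsRNA and 16032 smRNA reads, TAS1C 1826 and 12965, TAS1A 1205 and 12506, and TAS2 1232 and 10849. TAS1B had 166 and 1542 reads, TAS3b 127 and 1152, and TASIR-ARF 22 and 247, and AT3G25795 had none. TAS3 and TASIR-ARF passed the 4-fold limit, which lies within the counting interval of both (3.88 to 4.32 and 2.72 to 6.85). Of the dsRNA reads 90.1% were 20 to 25 nt long, and of the smRNA reads 71.9% were 21 nt.

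At 6 of the 7 TAS genes with reads, all but TAS2, the same read was the most frequent in both libraries. The TAS1A read printed above, on the strand of the transcript, made up 51.7% of the dsRNA and 58.6% of the smRNA reads of that gene. The TAS3 read, antisense, made up 35.2% and 33.5%, and the TAS1C read, antisense, 22.6% and 11.2%. The share of dsRNA and smRNA reads on the strand of the gene was 14.5% and 17.6% for TAS3, 94.9% and 94.8% for TAS1A, and 45.3% and 48.9% for TAS1C. It lay further apart in the other 4, with 82.9% and 62.7% for TAS2, 81.9% and 64.4% for TAS1B, 36.4% and 22.3% for TASIR-ARF (on 22 dsRNA reads) and 43.3% and 56.2% for TAS3b. In TAS2 21.1% of the dsRNA reads were 26 nt or longer. Over 116 named genes with a read in each library, 23 had the same most frequent read in both.

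Targets of these small RNAs fell on either side. Among 13 PPR genes of chromosome 1 that give secondary siRNAs, 6 had 50 reads, none was rich in dsRNA and AT1G63230 was rich in smRNA (5 and 69 reads). AT1G63130 had 58 and 459 reads, 2.97-fold higher in smRNA (2.26 to 3.98). Of the auxin receptors, AFB3 had 66 and 462 reads and AFB2 20 and 124, and TIR1 had 25 and 10. These directions depended on the processing, since the log2 ratio of AFB3 went from -1.39 to 0.04 with sequences counted once, that of AFB2 from -1.22 to 0.74 with the 2X dsRNA library and that of TIR1 from 2.74 to -0.19 with all locations. The auxin response factor ARF2 was rich in dsRNA with 368 and 24 reads. ARF4 had 36 and 114 reads (log2 ratio -0.25, and 0.55 with nuclear scaling), and ETT had 24 and 17 (log2 ratio 1.91, and -0.87 with all locations).

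Of 18 genes of the RNA silencing machinery, 5 had 50 reads, and AGO1, AGO4, AGO10 and SE were rich in dsRNA. DCL1, which excises miRNAs, had 57 and 95 reads (log2 ratio 0.68, and -0.68 with all mapped reads). AGO1, the main miRNA effector and itself a miRNA target, had 166 and 80 reads, a ratio of 5.53 (4.21 to 7.31), and 68.8% of its smRNA reads were 21 nt. Of the 17 genes examined singly in the study, a list drawn from these samples and therefore no independent evidence, 12 had 50 reads, 7 rich in dsRNA and 2 rich in smRNA. The latter were AT5G56070 (617 and 9079 reads, 5.52-fold higher in smRNA, 74.4% of 24 nt) and AT5G39370 (58 and 663 reads, 4.29-fold higher, 69.1% of 21 nt).

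Reads at marker genes were set beside the tissue label. The 9 floral regulators had 6 to 221 dsRNA reads each and 642 in all. Among them 6 had 50 reads and 3 had fewer. Of the 6, 5 were rich in dsRNA, such as PI (221 and 5 reads) and SEP3 (98 and 6). Among all nuclear protein-coding genes with 50 reads 1814 of 3194 were rich in dsRNA, so these calls do not bear on the tissue. AP2, a miRNA target, had 35 and 75 reads (log2 ratio 0.31, and -1.05 with all mapped reads). The root markers PYK10 and WOX5 had 1 and 0 dsRNA reads, and the 3 seed storage genes had none. In such bulk tissue, fewer cells of a type and less RNA per cell cannot be told apart.

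Convergent neighbours whose transcripts overlap could pair with each other. Of 442 genes of such pairs with 50 reads, 363 were rich in dsRNA and 27 rich in smRNA. Among all 3194 nuclear protein-coding genes with 50 reads these counts were 1814 and 536. The other 4307 genes of the pairs had under 50 reads, and a gene can reach this minimum through its dsRNA reads alone. Whether pairing plays a part was not tested. The 2376 overlaps themselves were thinly covered, with a median length of 83 bases and 3785 dsRNA and 6735 smRNA reads in all, and 12 had 50 reads. Of the 58 overlaps with at least 10 dsRNA reads, 45 had at least 90% of them on 1 strand. The overlap of AT1G48725 and AT1G48730, 306 bases long, had 895 dsRNA and 4558 smRNA reads (log2 ratio -0.94), with 4.36% and 10.2% on the Watson strand. The log2 ratio of AT1G48730 as a whole, -0.95, became 0.17 with scaling by the median ratio.

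The called groups differed in strand. Of the 2216 genes rich in dsRNA, 93.3% (92.2 to 94.3) had at least 90% of their dsRNA reads on the annotated strand. Of the 1373 genes rich in smRNA, 5.32% (4.25 to 6.63) had at least 90% of their smRNA reads there, with a median of 55.9%. In 91.0% of the latter neither strand reached 90%. Mixed smRNA reads were not particular to this group. Of the genes within 4-fold, 4.77% had at least 90% of smRNA reads on the annotated strand, and 93.0% had neither strand at 90%. miRNA genes were the exception among genes rich in smRNA, with 31 of 45 at 90% or more. At the genes rich in smRNA the dsRNA reads were mixed as well: of the 726 with at least 10 dsRNA reads, 86.8% had neither strand at 90%. Among the 2021 genes within 4-fold that had at least 10 dsRNA reads this share was 80.9%.

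**Figure D3:**
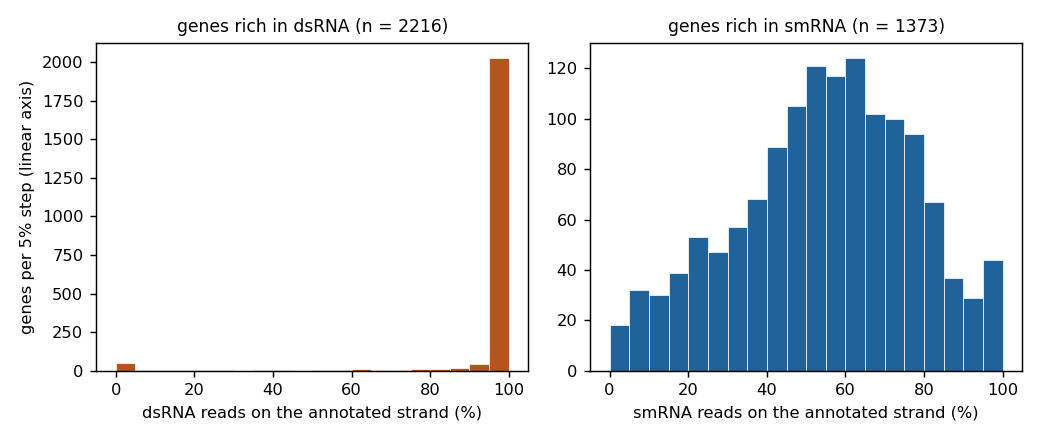
Number of genes (vertical axis, linear) by the share of reads on the annotated strand in steps of 5% (horizontal axis), for dsRNA reads at 2216 genes rich in dsRNA (left) and smRNA reads at 1373 genes rich in smRNA (right). On the left nearly all genes stand at the right edge, with a small group at 0, and on the right the shares spread around a median of 55.9%.

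A small set of genes rich in dsRNA had the opposite strand. In 59 genes at least 90% of the dsRNA reads were antisense, among them 30 other non-coding RNA genes and 26 protein-coding genes. Of these 26, 18 overlap a gene on the opposite strand with at least 50% as many dsRNA reads, which in 7 cases was a snoRNA or snRNA gene. AT3G15920 had 7108 dsRNA and 721 smRNA reads with 0.30% on its own strand and lies opposite a snoRNA gene. AT5G53905 had the 2224 reads of U3B, its opposite neighbour. Where genes overlap, a read was counted for each of them.

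Read lengths followed the same division. In bins rich in dsRNA, 64.8% of the dsRNA reads were 26 nt or longer and 37.7% were 38 nt, the longest length in the library. The study kept reads without a detectable 3′ adapter, so reads of 38 nt can stem from longer fragments. These shares pool the reads of all such bins, and bins with many reads weigh most. Per bin, the median share was 82.9% for 26 nt or longer and 12.3% for 20 to 25 nt. In bins rich in smRNA, 87.9% of the dsRNA reads were 20 to 25 nt long and 61.7% were 24 nt, and 2.27% were 26 nt or longer. Of the smRNA reads in these bins 99.2% were 20 to 25 nt and 74.4% were 24 nt, against 97.6% and 71.4% of the smRNA reads over every bin. In bins rich in dsRNA the smRNA reads were long, 74.5% of 26 nt or more, and the 35-base trnL read alone accounts for 23696 of 85661.

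**Figure D4:**
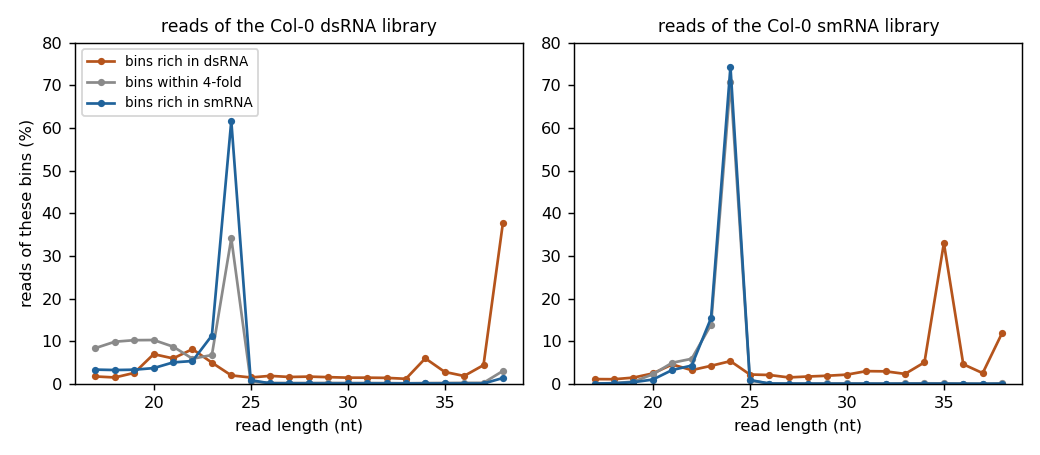
Share of reads (vertical axis, percent) by read length in nt (horizontal axis) for the dsRNA library (left) and the smRNA library (right), in bins rich in dsRNA (brown), within 4-fold (grey) and rich in smRNA (blue). The dsRNA reads of bins rich in smRNA peak at 24 nt (61.7%) as the smRNA reads do (74.4%). The dsRNA reads of bins rich in dsRNA are most frequent at 38 nt (37.7%), the longest read length, which can also hold longer fragments.

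Many reads had the same ends in both libraries. In bins rich in smRNA, 70.4% of the dsRNA reads (70.2 to 70.6) matched a smRNA read in position, length and strand, and 79.0% of those of 20 to 25 nt did. Of the dsRNA reads of 26 nt or longer in these bins 3.51% did, and over every bin 36.2%. In bins rich in dsRNA, 56.2% (56.1 to 56.3) of the dsRNA reads had a match, a share over pooled reads in which bins with many reads weigh most. A match needs 1 read in the other library, so these shares rise with its depth.

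By position, 13754 bins of 1000 bases had at least 50 reads. Of these, 1153 (8.38%) were rich in dsRNA and 6330 (46%) rich in smRNA. Outside the mitochondrion, bins rich in dsRNA overlapped a protein-coding gene in 91.7% of cases and no gene in 2.04% (1.36 to 3.05). Bins rich in smRNA overlapped a protein-coding gene in 30.7%, a pseudogene in 25% and no gene in 41.5% (40.2 to 42.7). Among all such bins with 50 reads the shares were 35.4%, 28.4% and 33.4%, and of these 3 only the share without a gene was higher in bins rich in smRNA. The 20 windows of 1 Mb with under 50% of the median number of protein-coding genes held 4.98% (3.80 to 6.48) of the nuclear bins rich in dsRNA and 31.7% (30.5 to 32.8) of those rich in smRNA, against 34.6% of all nuclear bins with 50 reads. In the chloroplast 101 of 104 bins were rich in dsRNA and none in smRNA. Of the bins rich in dsRNA 92.8% (91.2 to 94.2) had at least 90% of dsRNA reads on 1 strand, and of the bins rich in smRNA 10.1% (9.35 to 10.8) had this share of smRNA reads. Among all bins with 50 reads and at least 10 of the library in question, it was 29.7% for dsRNA and 9.71% for smRNA reads.

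Where each library had at least 50 reads in a bin, the strand with more reads was mostly the same in both. Of 2353 bins with at least 50 reads in each library, 1992 (84.7%) had the same major strand in both, and 579 of the 587 bins with at least 80% on 1 strand in both. Across 17338 nuclear bins with no gene or only pseudogenes the read numbers of the libraries rose together (Spearman's rho 0.83), and across 23150 bins with protein-coding genes only they did so weakly (0.24). Neighbouring bins and the depth of the libraries are shared by these points, and the coefficients are descriptions.

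Outside annotated genes, loci rich in smRNA were many and loci rich in dsRNA few. With 50 reads, 2624 of 4573 bins without a gene were rich in smRNA and 23 rich in dsRNA, against 6330 and 1153 of all 13754 bins. The number on the smRNA side rests on the scaling, and over all bins it fell to 313 with the median ratio. The minimum counts unscaled reads, and the smRNA library had 2.66 times the single-location reads of the dsRNA library. Among bins with no gene and at least 500 reads, 619 were rich in smRNA, 3 rich in dsRNA and 454 neither. The bin at chr1:13259001-13260000 led with 8 dsRNA and 995 smRNA reads, 46.7-fold higher in smRNA (23.6 to 108), 83.4% of 24 nt and 91.0% on the Watson strand. The bin at chr2:1562001-1563000 had 16 and 826 reads, 19.4-fold higher (11.9 to 34.1), with 70.1% of smRNA reads on the Watson strand. Of the 3 rich in dsRNA, chr5:17475001-17476000 had 551 and 9 reads, a ratio of 163 (85.3 to 359), with 99.8% of dsRNA reads on the Watson strand. The others, chr2:12333001-12334000 (4401 and 1410 reads) and chr2:12335001-12336000 (604 and 110 reads), lie on either side of the gene AT2G28755, with every dsRNA and smRNA read on the Crick strand and 93.6% and 99.7% of the dsRNA reads 26 nt or longer.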

How the data were processed

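Counts of reads per non-redundant (NR) sequence and the genomic locations of each sequence were deposited by the authors, who collapsed the reads, trimmed 3′ adapters where found and aligned the NR sequences with cross_match to TAIR9, keeping all locations of each. The counts were raw, and every NR sequence of 1 location was used here. Genes were taken from RefSeq TAIR10.1, whose nuclear and chloroplast chromosomes have the lengths that the locations fit, and 53 of 58 mature miRNAs had their most frequent 5′ end within 2 bases of the annotation. Mitochondrial reads were counted in bins only. A read belonged to a gene by its middle base and to a bin by its leftmost base. Each assay has 1 library, so ratios were given with exact Clopper–Pearson intervals and no test was made. The members and gene lists were chosen with earlier results of these data known. Named were the 10 called genes of the largest ratio in each direction with at least 500 reads, the 5 such bins without a gene, every TAS gene, up to 5 members with the most reads of each list, and the 10 genes with the most reads in the scarcer library. Alternatives covered scaling, the fold, the minimum of reads, read lengths, NR sequences counted once, all locations, the 2X dsRNA library, bins shifted by 500 bases and reads in more than 1 gene (5.02% of dsRNA and 1.26% of smRNA reads). Calls and intervals were checked on simulated data. Programs were Python 3.11.15, numpy 2.4.6, pandas 2.3.3, scipy 1.17.1 and matplotlib 3.10.9.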

Additional observations from a re-analysis of the deposited data

Results flagged for a closer look

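Among the named genes, 5 had a dsRNA to smRNA log2 ratio of opposite sign in Col-0 and in the rdr6 mutant, which lacks RNA-DEPENDENT RNA POLYMERASE6, with at least 50 reads in each pair of libraries. Each genotype has 1 library per assay, and the difference between genotypes was not tested. The ratio of TAS2 was -1.73 in Col-0 and 0.74 in rdr6, where 49 dsRNA and 76 smRNA reads were left of 1232 and 10849. The ratio of ARF4 was -0.25 in Col-0 and 5.69 in rdr6, with 80 dsRNA and 4 smRNA reads in place of 36 and 114. AT3G03395 had -1.11 and 1.26, where dsRNA reads numbered 3313 in Col-0 against 15866 in rdr6, beside 19107 and 17076 reads of smRNA. AT3G08370 had -1.09 and 1.05, with 3218 and 14073 dsRNA reads and 18226 and 17560 smRNA reads. AT3G43832 had -1.42 and 0.057, with 3107 and 8126 dsRNA reads and 22190 and 20196 smRNA reads. The contrast rests partly on the scaling: the Col-0 ratio of ARF4 became 0.55 with nuclear scaling and 0.87 with the median ratio, those of AT3G03395 and AT3G08370 became 0.0097 and 0.036 with the median ratio, and the rdr6 ratio of AT3G43832 is close to 0. No other scaling was applied to the rdr6 ratios. In rdr6 32.2% of the mapped dsRNA and 61.3% of the mapped smRNA reads had a single location. Scaling by all mapped reads would thus lower every rdr6 ratio, and the opposite sign of TAS2 is not settled either.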

How the results depend on the processing

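No paired analysis was possible because each assay has 1 library. The balance of the calls turned: 2216 genes rich in dsRNA against 1373 rich in smRNA became 2125 against 3301 with all mapped reads, and 1153 against 6330 bins became 1539 against 313 with the median ratio. It also turned without a change of scaling. Genes rich in dsRNA were 42.8% of the called genes at 2-fold and 41.1% with a minimum of 200 reads. They were 33.1% with dsRNA reads of 26 nt or longer and 33.4% with all locations. Bins rich in dsRNA were 71.3% of the called bins with no minimum. The minimum counts unscaled reads, and the smRNA library had 2.66 times the single-location reads of the dsRNA library. With dsRNA reads of 26 nt or longer, 2 genes and 9 bins had the opposite call. Where no value is given below, the count or share moved by less than 1.5 times or by less than its counting interval; the cause of each change beyond what its construction sets was not tested. The 2216 genes rich in dsRNA became 14923 with no minimum of reads, 448 with a minimum of 200 reads and 5906 with the 2X dsRNA library, and the 1153 bins became 25343, 303 and 3898, and 1736 with all locations. The 1373 genes rich in smRNA became 3301 (all mapped reads), 382 (nuclear scaling), 215 (median ratio), 3028 (2-fold), 263 (8-fold), 2116 (no minimum), 641 (200 reads), 3393 (dsRNA reads of 26 nt or longer), 635 (NR sequences counted once), 5405 (all locations) and 2591 (2X library). In the same order the 6330 bins rich in smRNA became 11567, 2077, 313, 10827, 1505, 10226, 2615, 11823, 2294, 21595 and 9858. The sense share of genes rich in dsRNA, 93.3%, became 87.5% with no minimum, 83.9% with 200 reads, 95.4% with the 2X library and 96.2% with reads in more than 1 gene left out. That of genes rich in smRNA, 5.32%, became 8.38% (nuclear scaling), 11.2% (median ratio), 10.6% (8-fold), 0.472% (NR sequences counted once) and 3.53% (all locations). The share of bins rich in dsRNA with 1 strand, 92.8%, became 84.7% (median ratio), 78.2% (200 reads) and 97.1% (2X library). That of bins rich in smRNA, 10.1%, became 8.46% (all mapped reads), 13.3% (nuclear scaling), 19.8% (median ratio), 8.67% (2-fold), 14.3% (8-fold), 12.0% (200 reads), 8.56% (dsRNA reads of 26 nt or longer), 0.915% (NR sequences counted once), 4.73% (all locations) and 9.18% (2X library). With the 2X library 2178 of the 2216 genes and 1249 of the 1373 genes were called again. Of the named genes the log2 ratio took the other sign in 7 of 149 with the median ratio, 3 with all mapped reads, 3 with nuclear scaling, 7 with all locations, 1 with smRNA reads of 20 to 25 nt, 1 of 146 with dsRNA reads of 26 nt or longer, 4 of 147 with the 2X library, 4 of 148 with NR sequences counted once and 2 of 138 with reads in more than 1 gene left out. The depth limits single genes: 32111 of 38028 genes had under 50 reads.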
